A study of Rattus norvegicus with 9 samples.

Results

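The nuclear genes of oxidative phosphorylation were examined in rat ileum after Roux-en-Y gastric bypass (RYGB), an operation that leads food from a small stomach pouch straight into the jejunum, or after a sham operation. Members were taken by gene symbol, as rows of the deposited tables that start with Nduf, Uqcr, Atp5, Cox4i, Cox5, Cox6, Cox7 or Cox8, or that equal Sdha, Sdhb, Sdhc or Sdhd. The rule found 87 of 17120 symbols, and no measured value was used in it. They comprise 7 core and 27 accessory genes of complex I, 6 assembly factors of complex I, 4 genes of complex II, 8 of complex III, 18 of complex IV and 17 of complex V. The strain of every animal was Otsuka Long-Evans Tokushima fatty, known for overeating, obesity and diabetes and for a missing cholecystokinin receptor. Tissue was taken 1 month after the operation. The labels name 3 groups of 3 samples: after RYGB, ileum in which FDG was decreased and ileum in which it was increased, and after the sham operation, ileum without an FDG label. The labels do not spell out FDG, which is read here as fluorodeoxyglucose, a glucose analogue whose uptake is imaged, and they give no age or sex. Nor do they say that replicates came from separate animals; a p-value here therefore reflects the spread among the samples at hand, which may be technical.

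Oxidative phosphorylation takes place in the inner mitochondrial membrane. Complexes I and II pass electrons from NADH and succinate to ubiquinone, complex III passes them on to cytochrome c, and complex IV passes them to oxygen. In doing so, complexes I, III and IV pump protons that drive the ATP synthase, complex V. Most subunits are encoded in the nucleus and a few in mitochondrial DNA, and in the gut the absorptive enterocytes are rich in mitochondria because transport of nutrients and ions costs much ATP. The mitochondrially encoded subunits were looked for under 13 symbols, of which 0 were among the rows, so they are not analysed here.

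Expression was measured by stranded total RNA sequencing after depletion of ribosomal RNA, and the values are FPKM, fragments scaled to transcript length and to the mapped fragments of the library, so that levels of different genes can be compared per length. One table held FDG-decreased and FDG-increased ileum and the other FDG-increased and sham ileum, with 6 library columns each. FDG-increased columns 2 and 3 of the sham table were replicates 1 and 2 of the RYGB table multiplied by 1.02, so the 12 columns held 10 distinct libraries, 4 of them FDG-increased. The fourth FDG-increased library, column 1 of the sham table, is called the sham-table library below. The labels list 3 FDG-increased samples, so it may be a further library of one of them, and which one is not known. The FPKM of a library summed to 465697 to 864511 and 10332 to 10892 genes reached 1 FPKM. Read depth is unknown, since FPKM keep no counts. Sham replicate 1 went against its tissue label: Fabp6, the ileal bile acid binding protein, was at 22.6 FPKM there, against 8375 and 11347 in the other sham libraries. It was at 5516 to 22955 in the RYGB libraries. Lct, the lactase of the upper small intestine, was at 253 FPKM there, against 8.60 and 0.317. As deposited, counts and medians of gene sets against sham are therefore given with and without the library labelled sham replicate 1. With quantile normalization, those of single complexes and of related gene lists are given only with that library.

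Member transcripts were abundant. In each library they took 2.75 to 4.72% of the summed FPKM, and the summed share was 2.96 to 3.69% in the 7 RYGB libraries against 4.72, 3.16 and 2.75% in sham replicates 1 to 3. Of the 87 members, 82 had a mean of at least 1 FPKM in both tables and were tested. The other 5 were Ndufa4l2, Cox8b, Cox8c, Cox6c-ps1, a pseudogene by its symbol, and Atp5f1, a subunit of the peripheral stalk of ATP synthase that was listed at 0 in all 10 libraries. Since every cell with ATP synthase uses the Atp5f1 product, that 0 can be a failed estimate, and it is given only as listed. In the next paragraphs, levels are given on the scale of the sham table, on which values of the RYGB table were multiplied by 1.02.

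The leading member was Atp5b, the catalytic beta subunit of ATP synthase, at 1458 ± 398 FPKM in FDG-decreased ileum (SD, n = 3), 1489 ± 399 in FDG-increased replicates 1 to 3 (SD, n = 3), 1409 in the sham-table library and 1271 ± 449.8 in sham ileum (SD, n = 3). Per library it ranged from 902 FPKM in sham replicate 3 to 1947 in FDG-increased replicate 2. Cox6c, a small subunit of cytochrome c oxidase, was the leading gene of complex IV, at 424 to 1529.7 FPKM, and it varied more than Atp5b between libraries. The next members by mean were Atp5a1, the alpha subunit, at 524 to 1172 FPKM, Atp5l, subunit g, at 413 to 1162, and Cox4i1, the regulatory subunit 4 of complex IV, at 502 to 1026. The ranges of Cox6c, Atp5a1, Atp5l and Cox4i1 overlapped, so the libraries do not set their order. The highest members of complexes III and II were Uqcr10, a small subunit of complex III, at 345 to 1043 FPKM, and Sdhd, a membrane anchor of complex II, at 191 to 583. In complex I they were Ndufb4, an accessory subunit in the membrane arm of complex I, at 186 to 534, and Ndufv2, an iron-sulfur subunit of its core, at 94.8 to 254. The assembly factors were at far lower levels, led by Ndufaf4 at 6.73 to 28.3 FPKM. Averaged on the log2 scale, complex V was the highest set and the assembly factors the lowest in each of the 10 libraries.

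Several complex IV subunits have a second isoform with a different tissue pattern, and the ileum libraries used the broadly expressed one. Cox4i2, the isoform known from lung and from low oxygen, was at 1.35 to 3.96 FPKM, or 0.159 to 0.598% of the sum of Cox4i1 and Cox4i2. Cox6a2, the isoform of heart and skeletal muscle, was at 0.908 to 2.80 FPKM, or 0.130 to 0.530% of its pair with Cox6a1. Cox8b, another muscle isoform, was above 0 in 2 of 10 libraries, at 0.681 and 2.10 FPKM, and Cox8c in 1, at 0.295, while Cox8a, their broadly expressed counterpart, ranged from 258 to 686. Ndufa4l2, a paralog of the complex IV subunit Ndufa4 that responds to hypoxia, was at 0.400 to 1.40 FPKM, or 0.174 to 2.14% of that pair. Cox6b2, the testis isoform of subunit 6b, was at 0.387 to 2.76 FPKM, and Cox6b1 and Cox7a1 are not analysed here. Cox7a2, the broadly expressed isoform of subunit 7a, ranged from 189.9 to 522. Ndufa10 and Ndufa10l1 are near copies by name, and how reads were split between them is not known, so their separate values are uncertain. The same holds for Atp5g1, Atp5g2 and Atp5g3, which encode the same mature c subunit of the ATP synthase ring.

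**Figure D1:**
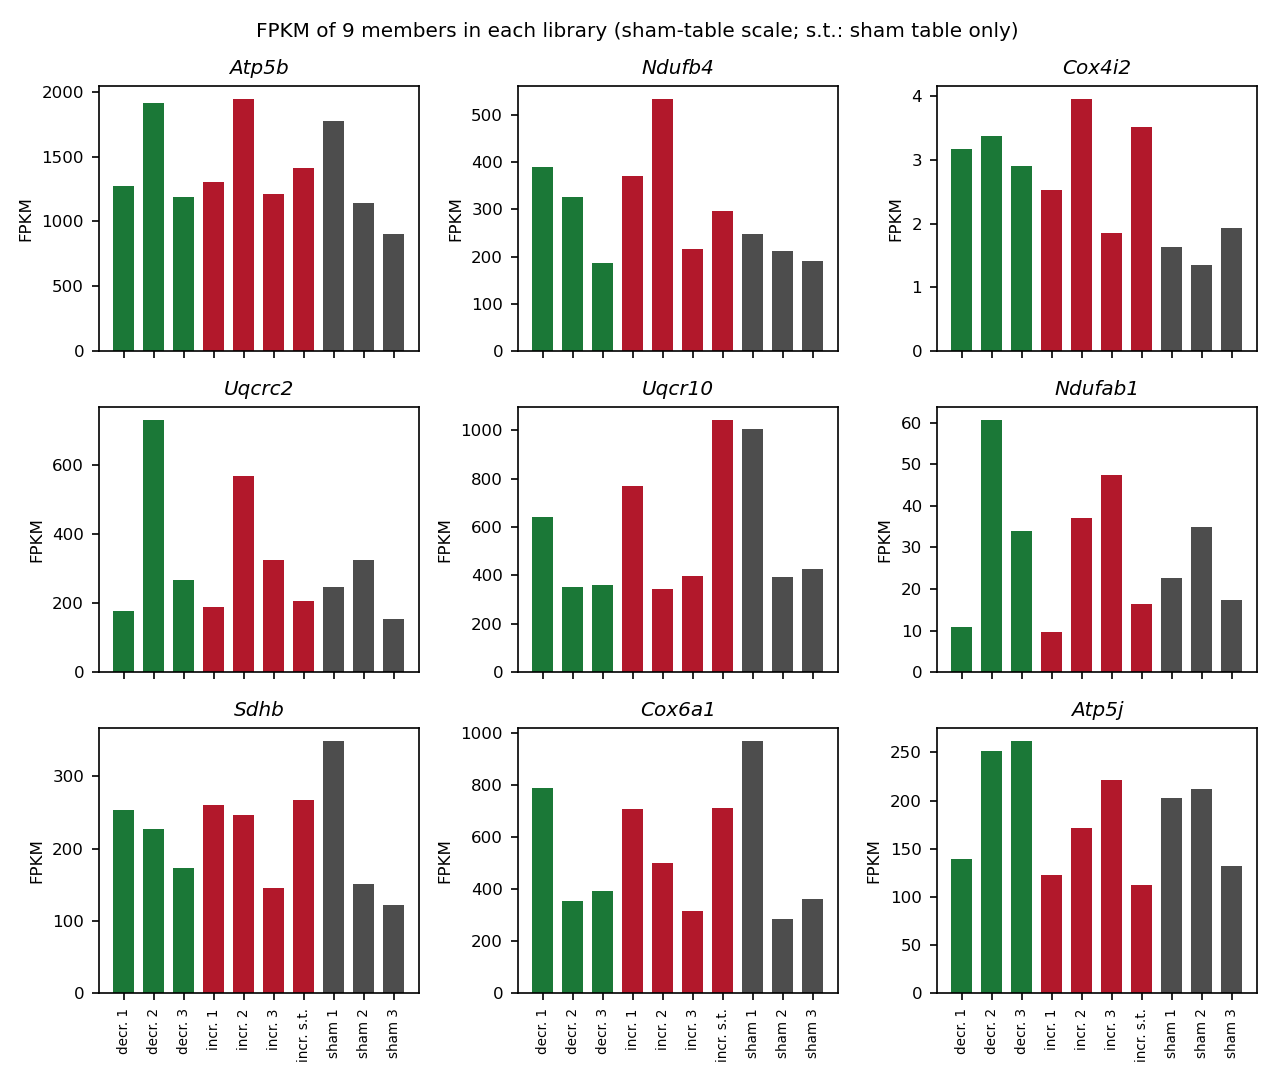
FPKM of 9 members (vertical axes, FPKM, each starting at 0) in the 10 libraries (horizontal axes), with bars for FDG-decreased (green), FDG-increased (red) and sham (gray) ileum; s.t. marks the sham-table library. Atp5b runs from 902 to 1947 FPKM, and for most members shown the spread within a group is as wide as that between groups.

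Promoters of these genes are known for sites of NRF1, of the ETS factor GABP, of YY1 and of oestrogen-related receptors, all of which act in the control of mitochondrial genes. RefSeq promoter windows of build GRCr8, 250 bases before to 50 after the start of the gene, were found for 74 of the 87 members, 17 of the 87 being matched to RefSeq by a synonym of their older symbol. The exact NRF1 consensus, the run in capitals in the first sequences below, was searched on both strands. It stood in 6 of 74 member windows (8.11%) and in 0.932% of all 27457 windows. The ETS letters CCGGAAG stood in 20 (27.0%, against 9.22% of all windows) and the YY1 letters AAGATGGC in 15 (20.3% against 3.44%). The letters AAGGTCA of oestrogen-related receptors stood in 11 (14.9% against 4.37%). Of the 15 with the YY1 letters, 13 held a copy that began between 4 bases before the start and 37 bases after it; these letters contain ATG. The CREB letters TGACGTCA stood in 5.41% of member windows against 1.91% of all, and the Sp letters GGGCGG in 43.2% against 34.9%. CCAAT stood in 31.1% against 37.7% and TATAAA in 8.11% against 14.3%. The median GC content was 56.7% in member windows and 52.3% in all windows, and the shares above were not adjusted for it. A match describes letters, not a bound site.

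The stretches with the NRF1 letters are shown for 5 of the 6 members that hold them, the c, e and OSCP subunits of ATP synthase, an accessory subunit of complex I and a complex I assembly factor; the sixth, Ndufaf5, is not shown because the stretch runs past its start. Each is 60 bases, 5′ to 3′ on the strand of the gene, with matched letters in capitals; Ndufaf4 also holds the Sp letters.
Atp5g2, chr7:135678240-135678299, strand -: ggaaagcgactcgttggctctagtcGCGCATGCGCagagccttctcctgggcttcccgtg
Atp5i, chr14:1464759-1464818, strand +: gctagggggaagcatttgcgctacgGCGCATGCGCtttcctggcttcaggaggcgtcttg
Atp5o, chr11:44657508-44657567, strand -: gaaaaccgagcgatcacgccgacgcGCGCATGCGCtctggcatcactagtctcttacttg
Ndufa11, chr9:1637492-1637551, strand +: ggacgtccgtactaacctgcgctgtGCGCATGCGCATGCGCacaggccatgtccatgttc
Ndufaf4, chr5:43401612-43401671, strand +: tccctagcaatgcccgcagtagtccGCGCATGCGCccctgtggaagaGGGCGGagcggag

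The 60 bases before the start are shown for Sdhd and Cox8a, with ETS letters in capitals as read on the other strand, CTTCCGG, and for a pair of complex III genes, Uqcrc2 with ETS letters and Uqcr10 with TATAAA, whose levels differed in opposite ways between replicate numbers 1 and 2 (below).
Sdhd, chr8:59850642-59850701, strand -: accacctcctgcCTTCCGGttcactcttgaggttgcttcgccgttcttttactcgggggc
Cox8a, chr1:213833624-213833683, strand -: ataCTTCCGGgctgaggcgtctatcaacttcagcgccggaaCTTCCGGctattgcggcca
Uqcrc2, chr1:184599180-184599239, strand +: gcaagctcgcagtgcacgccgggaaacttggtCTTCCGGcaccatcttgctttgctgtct
Uqcr10, chr14:83791915-83791974, strand -: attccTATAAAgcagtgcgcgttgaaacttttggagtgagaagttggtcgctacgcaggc

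Member levels differed more among the 3 sham libraries than between the group means, and sham replicates 1 and 3 stood at opposite ends. Sham replicate 1 held the highest of the 10 values for 30 of the 82 tested members and the lowest for 0. Sham replicate 3 held the lowest for 44 and the highest for 0, and sham replicate 2 the lowest for 15. FDG-increased replicate 2 held the highest value for 25 members and FDG-decreased replicate 2 for 22. These 2 libraries also had the highest library medians, 4.20 and 4.17 in log2(FPKM + 1) against 3.69 to 3.88 in the other 8. The mean log2(FPKM + 1) of the tested members was 7.32, 6.70 and 6.44 in sham replicates 1 to 3. It was 6.85, 7.32 and 6.84 in FDG-increased replicates 1 to 3. It was 7.01 in the sham-table library and 6.93, 7.30 and 6.90 in FDG-decreased replicates 1 to 3. With the median of each library subtracted, the RYGB libraries lay between 2.97 and 3.25, and the sham libraries at 3.50, 2.89 and 2.64. So sham replicate 1 lay above, and sham replicates 2 and 3 below, all 7 RYGB libraries on that scale. The ileal enterocyte markers, 8 of 9 found, summed to 4324, 9385 and 13048 FPKM in sham replicates 1 to 3. The markers of the upper intestine, 5 of 6 found, summed to 10703, 2249.6 and 2312. In the FDG-increased libraries of the same table, in column order, the ileal sum was 18344, 21993 and 26162, above every sham library. The upper intestine sum was 3849, 4854 and 5358 there. Single genes made up most of these sums, Fabp6 at 16503, 18963 and 22955 FPKM and Fabp1 at 3845, 4853 and 5356. Lct, Gip and Gata4, of the upper list, were lower in these libraries than in sham replicates 1 and 2. Of the ileal list, Fabp6 and Slc51a were above every sham library, and Slc10a2 and Anpep overlapped. Vil1, Alpi, Apoa4 and Cubn were highest of the 6 libraries in sham replicate 1. FDG-increased replicate 3 had an ileal sum of 8372, and FDG-decreased replicates 1 to 3 had 19886, 21639 and 6871, so that both RYGB groups held a library within the sham range. Of 16 marker lists, 8 had higher sums in all 3 FDG-increased libraries of the sham table than in any sham library, and 0 had lower ones. Among the 8, the goblet cell list summed to 6096 to 8696 against 2239 to 5813 FPKM. The Paneth list summed to 21710.1 to 33725 against 8177 to 19938, and the enteroendocrine list to 432 to 673 against 178 to 216. Without sham replicate 1, 9 lists were higher and 2 lower, the adipocyte list and the neuron and glia list. FDG-increased replicate 3 is not in these counts. Its T and NK cell, B and plasma cell, and macrophage and dendritic sums, 14.8, 0.598 and 5.82 FPKM, were below every sham library. Its striated muscle, Paneth, goblet and enteroendocrine sums were above every sham library. Adipocyte markers summed to 51.0, 457 and 141 FPKM in sham replicates 1 to 3 and to 44.7 to 103 in the RYGB libraries. Whether the intestinal region or the mix of cell types has a part in the level of the members was not tested, and in bulk tissue fewer cells of a type and less RNA per cell cannot be told apart.

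**Figure D2:**
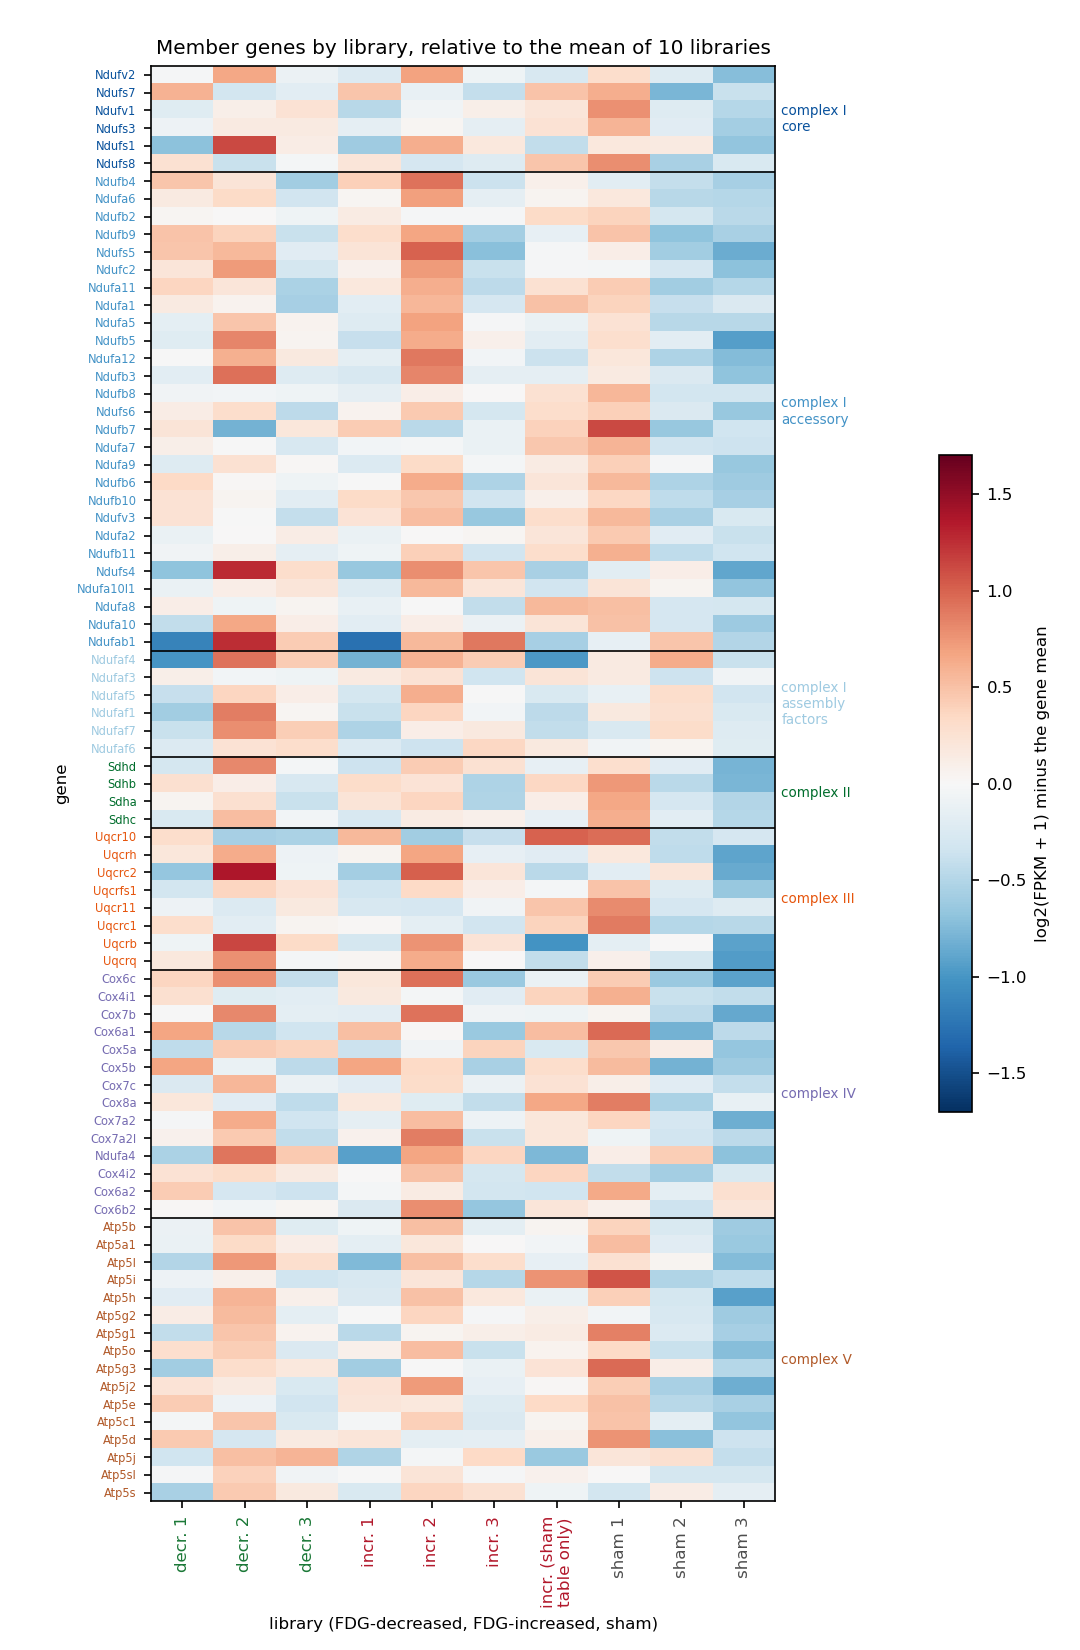
Each row is a member, 81 of the 82 tested, grouped by complex and ordered by mean level; each column is 1 of the 10 libraries, and the color gives log2(FPKM + 1) minus the mean of the gene over the 10 libraries. Sham replicate 1 is mostly above the gene means and sham replicate 3 below them for all but 2 members; a subset led by Ndufab1, Uqcrc2 and Ndufs4 is low in both replicates numbered 1.

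**Figure D3:**
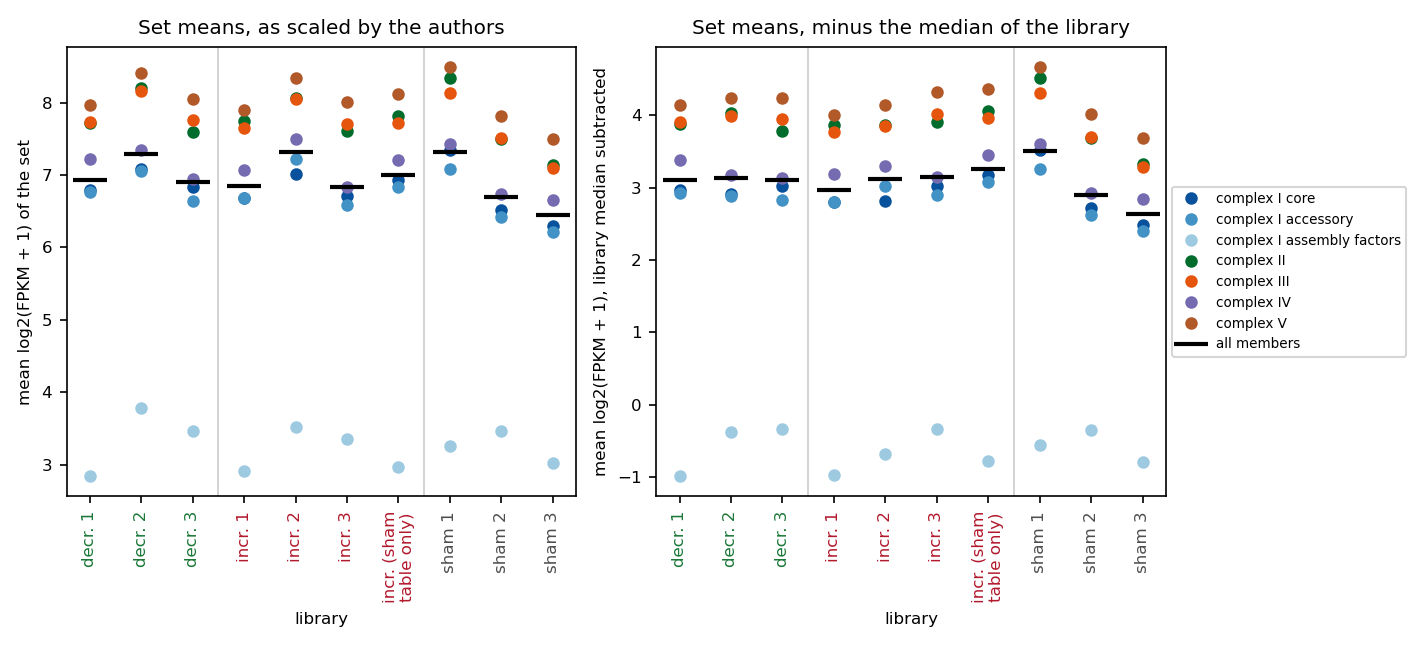
Mean log2(FPKM + 1) of each set (points) and of all tested members (black bars) in each library, as scaled by the authors on the left and with the median of the library subtracted on the right. On the right the RYGB libraries lie between 2.97 and 3.25 for all members, sham replicate 1 is at 3.50 and sham replicates 2 and 3 are at 2.89 and 2.64.

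The first comparison was between RYGB ileum labelled FDG increased and sham ileum. With limma and Benjamini-Hochberg adjustment at a threshold of 0.05, 0 of 82 members were called, against 4 of 10801 genes tested (0.037%). The fits were by gene, and no complex was tested as a set. At an unadjusted limma p under 0.05, 2 members were higher (2.44%, against 6.15% of all genes) and 0 lower (1.69% of all genes). As deposited, 67 of 82 members were higher after RYGB (81.7%, against 64.7% of all genes), with a median log2 difference of 0.27 against 0.13 over all genes, but with quantile normalization 27 of 82 were higher (46.9% of all genes) and the median was -0.13, against -0.02 over all genes. Shifting the libraries to one median, which removes the 0.13 common to all genes, left 57 of 82 higher (69.5%, against 50.2%) and a median of 0.14. The median standard error of a member was 0.38, wider than the median difference. Without sham replicate 1 the median was 0.55 against 0.15 over all genes, and 74 of 82 members were higher (90.2%, against 63.7%). In that fit 16 members had an unadjusted limma p under 0.05 (19.5%, against 7.43% of all genes higher), and 0 were called after adjustment (0.00926% of all genes). Without that library and with quantile normalization, 42 of 82 were higher (47.3% of all genes), with a median of 0.03; with libraries shifted to one median 69 were (51.6% of all genes), with a median of 0.42. Without sham replicate 3 the median was 0.05 and 46 of 82 were higher (56.1%, against 63.5% of all genes). Among libraries labelled as lane 7, all 3 sham replicates and FDG-increased replicate 1, it was 0.02 with 42 higher; the lane of the sham-table library is not known, and the lone FDG-increased library is assumed there to vary like the sham group.

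The groups did not overlap for 6 members, all higher (7.32%, against 10.7% of all genes), and for 0 in the other direction (4.44% of all genes). Without sham replicate 1 they did not overlap for 47 (57.3%, against 22.6%). The 6 were Ndufb4, Ndufc2, Ndufaf3, Cox4i2, Cox7a2l and Atp5g2, of which Ndufc2, Cox7a2l and Atp5g2 are named because this count is small, after their values were seen. Ndufc2, an accessory subunit in the membrane arm of complex I, was at 180.5, 193 and 303 FPKM in FDG-increased and 179, 151 and 113 in sham ileum. Cox7a2l, which takes part in joining complexes III and IV into supercomplexes, was at 190.1, 175 and 306 against 158, 133 and 122. Atp5g2, whose promoter holds the NRF1 letters shown above, was at 578, 535 and 691 against 523, 444 and 355 FPKM. In each case sham replicate 1 was the highest of the sham libraries.

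In complex I, 5 of 7 core and 26 of 27 accessory genes were higher, with median log2 differences of 0.14 and 0.35, but 1 and 12 with medians of -0.16 and -0.01 with quantile normalization. Without sham replicate 1 they were 7 of 7 (median 0.53) and 26 of 27 (median 0.60), and without sham replicate 3 they were 4 of 7 (median 0.01) and 17 of 27 (median 0.19). Ndufb4 was at 296, 370.0 and 534 FPKM in FDG-increased and 248, 211 and 189.9 in sham ileum, 400.0 ± 122 against 216 ± 29.6 FPKM (SD, n = 3 each). Its FDG-increased and sham values did not overlap. The log2 difference was 0.85 ± 0.34 (SE), with an unadjusted limma p of 0.0337 and a Benjamini-Hochberg adjusted p of 0.621. Ndufs5, an accessory subunit on the intermembrane side, was at 178, 209.9 and 363 against 196, 119.8 and 101 FPKM, where sham replicate 1 lay above the lowest FDG-increased library, and differed by 0.83 ± 0.40 (SE; limma adjusted p = 0.667). Ndufs7, which carries the last iron-sulfur cluster before ubiquinone, had the largest difference of the core, 0.46 ± 0.42 (SE; limma adjusted p = 0.828). Its values were 172, 170.0 and 112 against 188, 70.8 and 94.2 FPKM, so that sham replicate 1 was the highest of the 6. Ndufv1, the subunit that binds NADH, was at 131, 81.7 and 108 against 195, 97.5 and 80.7 FPKM, and its difference of -0.13 ± 0.41 (SE) became 0.24 without sham replicate 1. Ndufab1, the mitochondrial acyl carrier protein, had the lowest difference of the accessory genes, -0.37 ± 0.46 (SE), with 16.5, 9.78 and 37.0 against 22.6, 34.9 and 17.5 FPKM and overlapping groups.

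As deposited, the assembly factors of complex I had a median below 0, unlike each set of subunits, with 2 of 6 higher and a median of -0.14 (-0.15 with quantile normalization and -0.11 and -0.22 without sham replicates 1 and 3); the difference between the sets was not tested. Ndufaf4, an assembly factor that works with Ndufaf3, was at 6.85, 7.80 and 22.1 FPKM in FDG-increased and 16.1, 22.9 and 10.9 in sham ileum, a log2 difference of -0.53 ± 0.44 (SE; limma adjusted p = 0.807). Its FDG-increased libraries were split, with a single high one, replicate 2 of the RYGB table. Ndufaf3 was higher in all 3 FDG-increased libraries than in any sham library, at 14.1, 13.5 and 14.4 against 13.4, 9.22 and 11.5 FPKM, 0.29 ± 0.24 on the log2 scale (SE; limma adjusted p = 0.807).

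Of the complex II genes, 3 of 4 were higher, with a median of 0.24, and 1 of 4 with quantile normalization, with a median of -0.17. The count was 4 of 4 (median 0.55) without sham replicate 1 and 2 of 4 (median -0.01) without sham replicate 3. Sdha, the flavoprotein that oxidizes succinate, was at 194, 209 and 232 FPKM in FDG-increased and 283, 147 and 127 in sham ileum. Sdhb, the iron-sulfur subunit, was at 268, 261 and 247 against 349, 152 and 122, a log2 difference of 0.47 ± 0.42 (SE; limma adjusted p = 0.823). For both genes sham replicate 1 was the highest of the 6 libraries and sham replicates 2 and 3 the lowest, and without the former the difference of Sdhb was 0.92. The membrane anchors were at 164, 149 and 198 against 277, 159.7 and 129 FPKM for Sdhc and at 298, 259 and 446 against 403, 289 and 191 for Sdhd. The difference of Sdhc, -0.08 ± 0.37 (SE), changed sign to 0.24 without sham replicate 1.

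In complex III, 7 of 8 genes were higher, with a median of 0.21, against 2 with quantile normalization and a median of -0.22. The genes higher were 8 of 8 (median 0.49) without sham replicate 1 and 3 of 8 (median -0.06) without sham replicate 3. Uqcrh, the hinge protein that lies next to cytochrome c1, had the largest difference, 0.56 ± 0.39 (SE; limma adjusted p = 0.779), at 361, 428 and 661 against 469.6, 307 and 222 FPKM. Uqcr11, a small subunit, had the lowest, -0.13 ± 0.41 (SE), at 266, 158 and 157 against 333, 157 and 164, and this too changed sign, to 0.22, without sham replicate 1. Uqcr10 was split within both groups, at 1043, 768 and 345 against 1006, 391 and 426 FPKM.

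In complex IV, 11 of 14 tested genes were higher, with a median of 0.36, and 6 with quantile normalization, with a median of -0.06. The higher genes were 12 of 14 (median 0.64) without sham replicate 1 and 11 of 14 (median 0.22) without sham replicate 3. Cox4i2 had the lowest p of all members: it was at 3.52, 2.52 and 3.96 FPKM in FDG-increased and 1.63, 1.35 and 1.94 in sham ileum, 3.33 ± 0.737 against 1.64 ± 0.292 FPKM (SD, n = 3 each). The log2 difference was 0.71 ± 0.23 (SE), with an unadjusted limma p of 0.0148 and a Benjamini-Hochberg adjusted p of 0.548, and without sham replicate 1 it was 0.71. It stood below 1% of Cox4i1, which was at 880.4, 755 and 658 against 1026, 517 and 502 FPKM with overlapping groups. Cox5b, a zinc-binding subunit, had the largest difference of the set, 0.72 ± 0.41 (SE; limma adjusted p = 0.709), at 559.6, 724 and 577 against 662, 259.5 and 300.2. Sham replicate 1 lay among the FDG-increased values, and the other sham libraries below all of them; without it the difference was 1.14. Cox6c was at 739, 917 and 1529.7 against 1076, 515 and 424 FPKM, again with sham replicate 1 among the FDG-increased libraries. The lowest difference was that of Cox6a2, -0.32 ± 0.27 (SE), at 0.930, 1.38 and 1.69 against 2.80, 1.17 and 1.93 FPKM.

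In complex V, 13 of 16 tested genes were higher, with a median of 0.23, and 4 with quantile normalization, with a median of -0.22; Atp5s and Atp5sl, counted here by symbol, are not subunits of the enzyme. They were 15 of 16 (median 0.57) without sham replicate 1 and 8 of 16 (median 0.0039) without sham replicate 3. Atp5j2, subunit f of the membrane part, was at 356, 412 and 580.2 FPKM in FDG-increased and 469, 238 and 197 in sham ileum, a log2 difference of 0.65 ± 0.41 (SE; limma adjusted p = 0.745). Atp5b was at 1409, 1305 and 1947 against 1772, 1139 and 902, 0.32 ± 0.36 on the log2 scale (SE; limma adjusted p = 0.868). In both genes sham replicate 1 lay inside the range of FDG-increased ileum and sham replicates 2 and 3 below it. Atp5j, coupling factor 6 of the peripheral stalk, had the lowest difference, -0.42 ± 0.35 (SE; limma adjusted p = 0.807), at 113, 123 and 172 against 203, 212 and 133 FPKM.

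**Figure D4:**
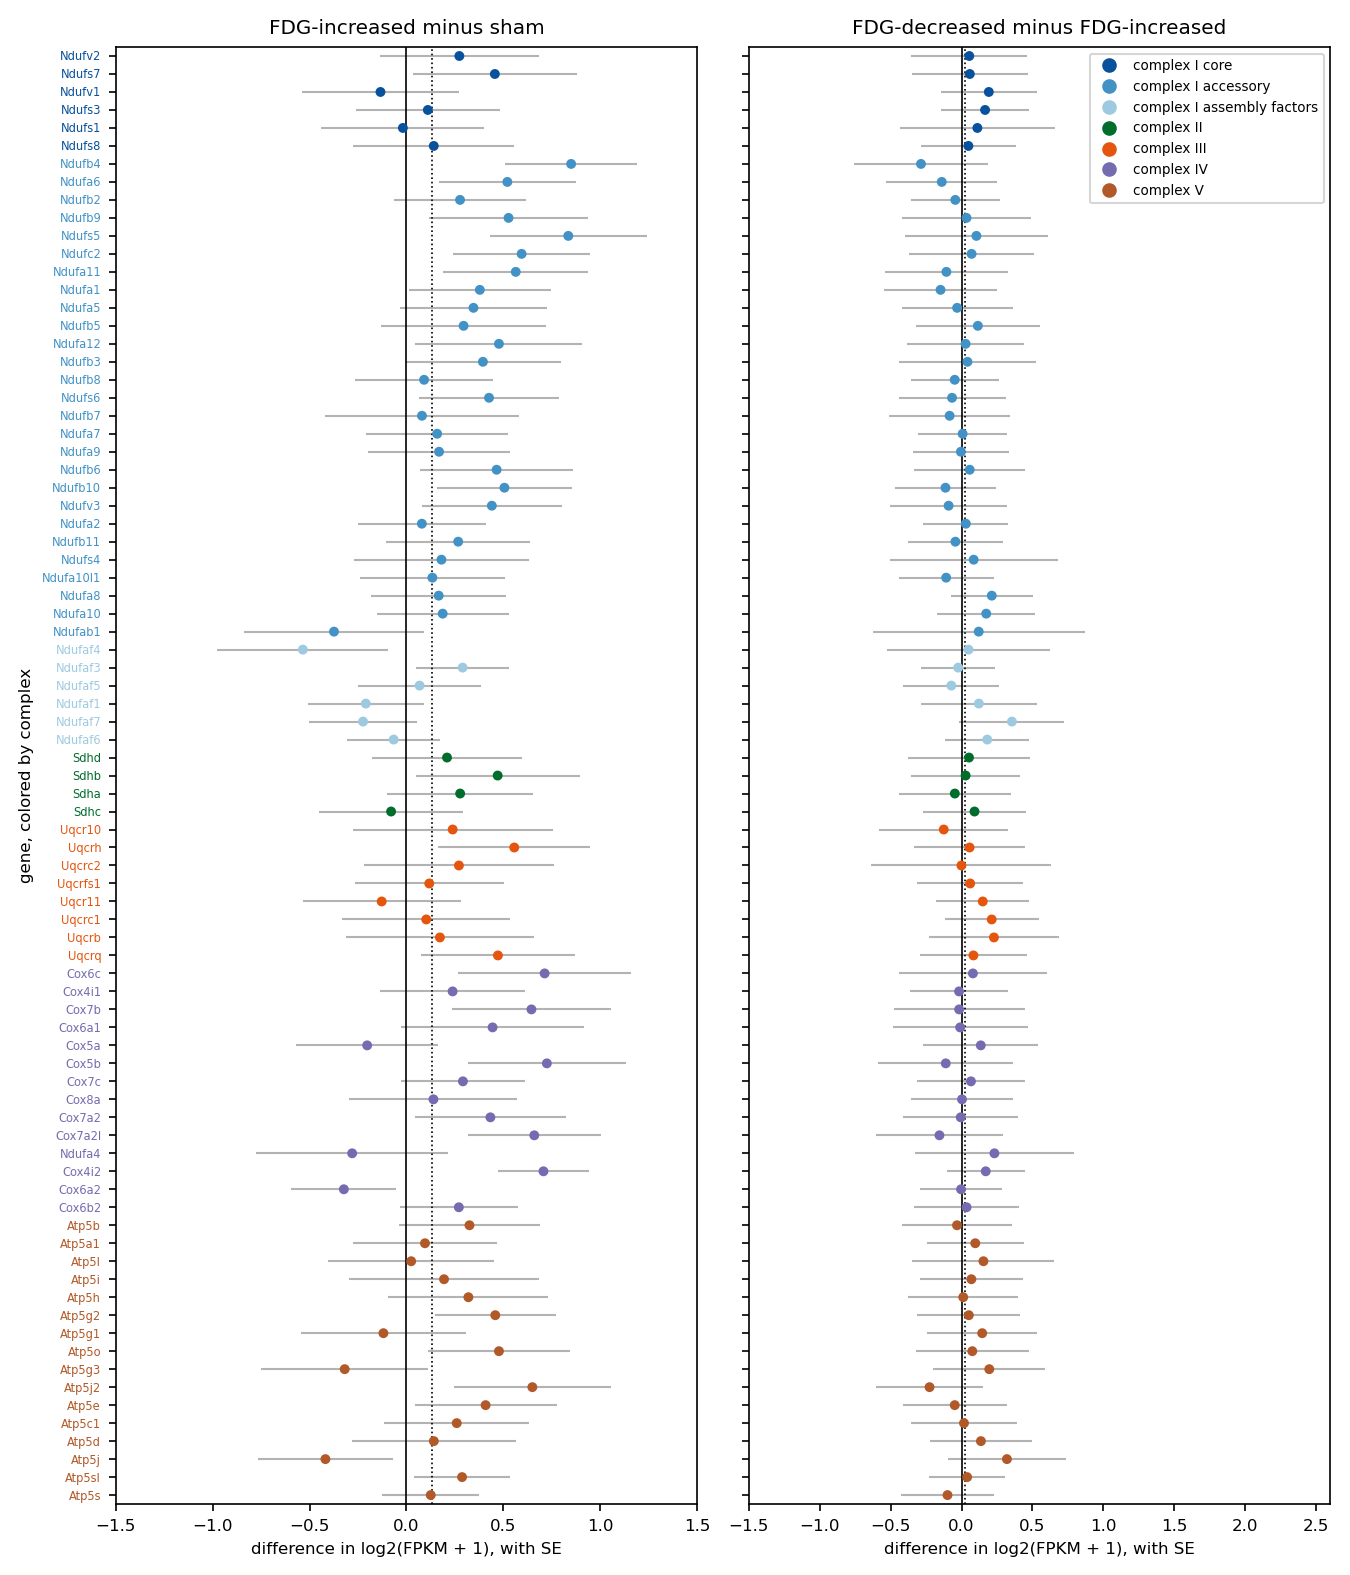
Difference in log2(FPKM + 1) of 81 of the 82 tested members (points, colored by complex) with the limma standard error (bars), for FDG-increased minus sham on the left and FDG-decreased minus FDG-increased on the right; the dotted line is the median over all genes, 0.13 and 0.02. Differences on the left spread from -0.53 to 0.85 and those on the right from -0.29 to 0.36; both comparisons use FDG-increased replicates 1 and 2.

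The second comparison set FDG-decreased against FDG-increased ileum after RYGB. Besides the labelled FDG signal, markers of the upper intestine differed (scale of the sham table). Lct was at 8.58, 4.45 and 1.42 FPKM in FDG-decreased and 0.533, 0.697 and 0.130 in FDG-increased replicates 1 to 3. Gip was at 4.24, 7.04 and 13.2 against 0.204, 0.905 and 2.21. Gata4 was at 6.29, 1.03 and 27.0 against 0, 0.042 and 0.603. Fabp1 overlapped, and Pdx1 was near 0. Whether the intestinal region has a part in this comparison was not tested. By limma with Benjamini-Hochberg adjustment 0 of 82 members were called, and 0 of 10739 genes were called in all (0%). An unadjusted limma p under 0.05 was found for 0 members, against 0.363% of all genes higher and 0.661% lower. Of the members, 52 were higher and 30 lower (63.4% higher, against 55.2% of all genes). They had a median log2 difference of 0.05 against 0.02 over all genes and a range from -0.29 to 0.36. The groups overlapped for every tested member, while they did not for 1.95% of all genes higher and 1.26% lower. The median standard error of a member was 0.39, or 0.14 with the replicate block described next, so differences smaller than these errors were not resolved, and the overlap does not show that levels were equal. The sign of the small median depended on single libraries: it was -0.11 without FDG-decreased replicate 2, -0.06 without FDG-increased replicate 3 and -0.02 without FDG-increased replicate 1, and it was 0.19 without FDG-increased replicate 2. Lane 4 held FDG-decreased replicate 2 and FDG-increased replicates 2 and 3. A fit of these alone assumed that the lone sample varies like the other group. It gave 62 of 82 members higher (75.6%, against 75.1% of all genes), with a median of 0.23 against 0.26 over all genes.

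Libraries with the same replicate number deviated together in this table, so the comparison was also fitted with the number as a block. With the block, limma called 122 of 10739 genes (1.14%) and 0 of 82 members. An unadjusted limma p under 0.05 was found for 1 member, which was higher, against 4.81% of all genes higher and 4.70% lower. That member was Atp5j, with a log2 difference of 0.32 ± 0.14 (SE; 0.42 without the block), an unadjusted limma p of 0.0384 and a Benjamini-Hochberg adjusted p of 0.474 with the block. It was higher in FDG-decreased ileum in 3 of 3 pairs. Its values on the scale of the RYGB table, used for the rest of this comparison, were 136, 246 and 256 FPKM in FDG-decreased and 120.1, 169 and 217 in FDG-increased replicates 1 to 3. Within pairs the median difference of the members was 0.09, -0.02 and 0.04 in pairs 1 to 3, of which pair 1 was run in lane 7 and pair 2 in lane 4. In pair 3 the FDG-decreased library was run in lane 5 and the FDG-increased library in lane 4. FDG label and lane cannot be told apart in that pair. In all, 10 members were higher in all 3 pairs (12.2%, against 17.2% of all genes) and 1 lower (1.22%, against 12.7%). In the rest of this comparison, standard errors are without the block unless it is named.

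All 7 core genes of complex I were higher in FDG-decreased ileum by small amounts, 0.05 to 0.19 on the log2 scale with a median of 0.07. They were higher after shifting to one median and after quantile normalization too (medians 0.05 and 0.08). Leaving out 1 library in turn left 3 to 7 of the 7 higher, the 3 without FDG-increased replicate 3, where their median was -0.01. Without the block, 0 of these differences exceeded its standard error, and with it 2 did, those of Ndufv1 and of Ndufs3, which is named after its value was seen. Ndufv1 was at 96.2, 118 and 131 against 79.8, 106 and 118 FPKM, 0.19 ± 0.34 (SE). With the block its SE was 0.13, with an unadjusted limma p of 0.160 and an adjusted p of 0.760, and it was higher in 3 of 3 pairs, by 0.27, 0.16 and 0.15. Ndufs3, another subunit of the core, differed by 0.17 ± 0.13 (SE with the block; limma adjusted p = 0.832). Ndufs8, an iron-sulfur subunit, was at 86.6, 55.5 and 71.0 against 83.6, 59.5 and 61.9, 0.05 ± 0.34 (SE). Of the accessory genes 13 of 27 were higher, with a median of -0.0045. One extreme was Ndufa8, an accessory subunit on the intermembrane side, at 47.7, 41.6 and 45.4 against 40.2, 43.8 and 32.5 FPKM, 0.21 ± 0.29 (SE). The other extreme was Ndufb4, at 381, 319 and 182 against 362, 523 and 212, -0.29 ± 0.48 (SE). The value for Ndufb4 rested on pairs 2 and 3, in which the FDG-increased library was the higher, while pair 1 went the other way. Among the assembly factors 4 of 6 were higher, with a median of 0.09. Ndufaf7, an enzyme needed early in the assembly of complex I, was at 3.45, 9.02 and 6.70 against 3.02, 5.27 and 5.51 FPKM, 0.36 ± 0.37 (SE), the largest difference of all members. Ndufaf5, which modifies Ndufs7, was at 7.37, 13.1 and 10.9 against 7.86, 15.8 and 9.91, -0.07 ± 0.34 (SE). Ndufaf7 was higher in FDG-decreased ileum in 3 of 3 pairs, with a limma p of 0.064 before and 0.586 after Benjamini-Hochberg adjustment in the fit with the block.

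Complexes II and III showed 3 of 4 and 6 of 8 genes higher, with medians of 0.04 and 0.07. In complex II Sdhc was at 148, 255 and 171 FPKM in FDG-decreased and 146, 194 and 188 in FDG-increased ileum, 0.09 ± 0.37 (SE). Sdha was at 182, 213 and 135 against 205, 228 and 123, -0.05 ± 0.39 (SE). The other two genes of complex II had 0.03 ± 0.38 (Sdhb) and 0.05 ± 0.43 (Sdhd). In complex III Uqcrb, a subunit near the ubiquinone site, was at 103, 239 and 136 against 88.1, 184 and 128 FPKM, 0.23 ± 0.46 (SE). Uqcr10 was at 629, 344 and 351 against 750.3, 338 and 389.8, -0.13 ± 0.45 (SE). Replicate 2 was the highest of both groups for Uqcrb, and replicate 1 of both groups for Uqcr10.

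In complex IV 7 of 14 genes were higher, with a median of -0.00011, and in complex V 12 of 16, with a median of 0.06. Without FDG-decreased replicate 2 the counts higher fell to 4 of 27 accessory genes, 0 of 4 genes of complex II, 3 of 8 of complex III, 6 of 14 of complex IV and 3 of 16 of complex V. Ndufa4, once counted with complex I and now placed in complex IV, was at 82.3, 225 and 163 FPKM in FDG-decreased and 62.4, 192 and 155 in FDG-increased ileum, 0.23 ± 0.56 (SE). Cox7a2l was at 171, 223 and 122 against 171, 299.7 and 125, -0.16 ± 0.45 (SE). Ndufa4 was higher in 3 of 3 pairs. With the block its SE was 0.13, with an unadjusted limma p of 0.109 and an adjusted p of 0.691. The lowest difference of complex V was that of Atp5j2, at 404, 383 and 288 against 403, 569 and 311, -0.23 ± 0.38 (SE). Cox4i2, first by p in the comparison with sham, was at 3.10, 3.30 and 2.84 against 2.46, 3.88 and 1.81 FPKM here, 0.17 ± 0.27 (SE). Atp5b was at 1246, 1874 and 1161 against 1276, 1908 and 1189.5, -0.03 ± 0.39 (SE).

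**Figure D5:**
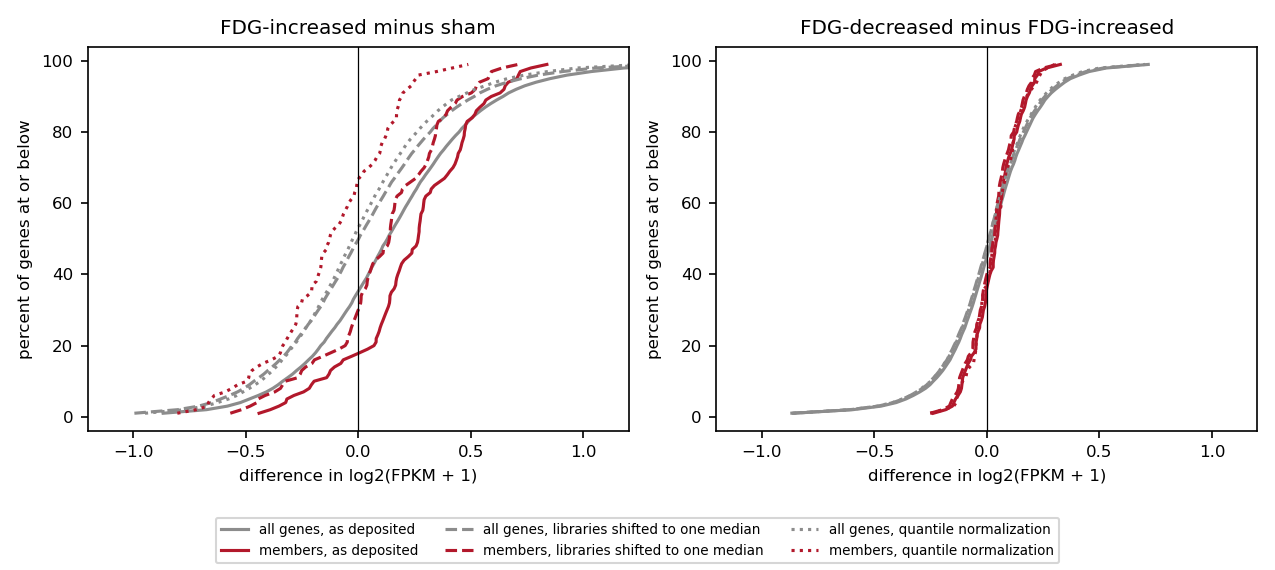
Percent of genes (vertical axis) at or below a given difference in log2(FPKM + 1) (horizontal axis) for the tested members (red) and all genes (gray), as deposited (solid), with libraries shifted to one median (dashed) and with quantile normalization (dotted). Against sham, the red line lies right of the gray one as deposited (medians 0.27 and 0.13) and left of it with quantile normalization (-0.13 and -0.02); between the RYGB groups the lines lie near 0 under all 3 scalings.

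Within the RYGB table many members, like many genes in general, differed between replicate numbers in the same way in both FDG groups. After shifting the libraries to one median, both libraries numbered 1 lay above both numbered 2 for 23 of 82 members (28.0%, against 38.6% of all genes) and below both for 35 (42.7%, against 36.4%). The members lowest in number 1 relative to number 2 were Ndufab1, at -1.77 on the log2 scale, Uqcrc2, a core protein of complex III, at -1.48, and Ndufs4, a late-joining accessory subunit of complex I, at -1.37. The highest were Uqcr10 at 1.34, Ndufb7 at 1.28, Cox6a1 at 1.15 and Ndufs7 at 1.08, all chosen for these values. Uqcrc2 was at 173 and 183 FPKM in the libraries numbered 1 and at 714 and 555 in those numbered 2. Uqcr10 of the same complex was at 629 and 750.3 against 344 and 338. Subunits of one complex thus differed in opposite directions between numbers, in both FDG groups. Libraries numbered 1 were run in lane 7 and those numbered 2 in lane 4, so that number and lane cannot be told apart. Across the 70 tested members with a promoter window, the GC content of that window had a Pearson r of 0.08 and a Spearman rho of 0.09 with this difference, as a description across genes that share their libraries.

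FDG-decreased and sham ileum are in different tables, and their values were set side by side without a test. Members had a median log2 difference of 0.22 (70 of 82 higher, or 85.4%, against 67.6% of all genes), beside 0.13 over the 10652 genes tested in both tables. The median was 0.10 after shifting to one median (53 of 82 higher, or 64.6%, against 51.6% of all genes). It was -0.05 with quantile normalization (30 of 82 higher, or 36.6%, against 50.04% of all genes). Without sham replicate 1 it was 0.47 as deposited (80 of 82 higher, or 97.6%, against 68.4% of all genes), 0.34 after the shift (75 of 82 higher, or 91.5%, against 53.1% of all genes) and 0.03 with quantile normalization (46 of 82 higher, or 56.1%, against 49.2% of all genes). By complex the medians were 0.22 and 0.24 for the core and accessory genes of complex I, 0.15 for complex II, 0.36 for complex III, 0.28 for complex IV and 0.22 for complex V. With quantile normalization they were -0.09, -0.04, -0.22, 0.01, -0.04 and -0.13. As deposited and without sham replicate 1, they were 0.46, 0.52, 0.53, 0.53, 0.42 and 0.50. Cox4i2 was at 3.17, 3.37 and 2.90 FPKM in FDG-decreased ileum, above all 3 sham values of 1.63, 1.35 and 1.94.

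Genes that work with the complexes were read from fixed lists. In these, limma without the replicate block and with Benjamini-Hochberg adjustment called 0 genes in either comparison. Of the assembly factors outside the symbols above, 17 of 33 were higher than in sham ileum (median 0.03), 13 with quantile normalization (median -0.11) and 18 without sham replicate 1 (median 0.09). Of the genes of coenzyme Q synthesis, 6 of 8 were higher than in sham ileum (median 0.16), 5 with quantile normalization (median 0.09) and 8 without sham replicate 1 (median 0.27). The median over all genes was 0.13 as deposited, -0.02 with quantile normalization and 0.15 without sham replicate 1. Of the tricarboxylic acid cycle, 12 of 16 were higher than in sham ileum (median 0.13), 3 with quantile normalization (median -0.22) and 14 without sham replicate 1 (median 0.34). Of the nucleotide and phosphate carriers and porins, which exchange ADP, ATP and phosphate across the membranes, 5 of 7 were higher than in sham ileum (median 0.26), 1 with quantile normalization (median -0.17) and 7 without sham replicate 1 (median 0.24). The medians of these lists, other than that of coenzyme Q synthesis, turned in sign between scalings, as those of the subunits did. Of the mitochondrial ribosomal proteins, 51 of 66 were higher than in sham ileum (median 0.21), 33 with quantile normalization (median -0.0018) and 55 without sham replicate 1 (median 0.35). Of the cytosolic ribosomal proteins, given as another set of abundant transcripts, 75 of 77 were higher than in sham ileum (median 0.56), 38 with quantile normalization (median -0.01) and 76 without sham replicate 1 (median 0.59). Between FDG-decreased and FDG-increased ileum, the counts higher were 24 of 33 (median 0.08) for assembly factors, 5 of 8 (median 0.03) for coenzyme Q synthesis and 11 of 16 (median 0.03) for the tricarboxylic acid cycle. They were 2 of 7 (median -0.04) for carriers, 36 of 66 (median 0.01) for mitochondrial and 16 of 77 (median -0.10) for cytosolic ribosomal proteins. Mdh2, the mitochondrial malate dehydrogenase, was at 312, 266 and 401 FPKM in FDG-decreased and 175, 186 and 211 in FDG-increased ileum, without overlap. In the fit without the replicate block the log2 difference was 0.76 ± 0.34 (SE), with a limma adjusted p of 0.999998. With no blocked fit given here, Mdh2 was higher in FDG-decreased ileum in every same-numbered pair. In sham ileum it was at 988, 255 and 153, highest in sham replicate 1.

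Of 15 tested regulators of mitochondrial biogenesis, 9 were higher in FDG-increased than in sham ileum (median 0.08, 5 higher with a median of -0.10 with quantile normalization, and 8 with a median of 0.08 without sham replicate 1) and 7 were higher in FDG-decreased than in FDG-increased ileum (median -0.01). Ppargc1b, a coactivator of NRF1 and the oestrogen-related receptors, had the lowest difference against sham. It was at 5.28, 7.07 and 3.45 FPKM in FDG-increased and 10.3, 7.64 and 9.62 in sham ileum, without overlap. The log2 difference was -0.73 ± 0.28 (SE), with an unadjusted limma p of 0.0283 and a Benjamini-Hochberg adjusted p of 0.605. Its relative Ppargc1a was at 7.09, 9.72 and 8.74 against 19.4, 7.96 and 5.76 FPKM, with sham replicate 1 the highest. Nrf1 was at 12.1, 13.3 and 14.5 against 11.8, 11.1 and 11.2 FPKM, and Tfam, which packs and transcribes mitochondrial DNA, at 49.5, 44.3 and 123 against 40.1, 73.8 and 49.0. Among the libraries just given, Tfam was highest in FDG-increased replicate 2 of the RYGB table, the library with the highest median of all. The groups overlapped for Tfam, which was at 127 FPKM in FDG-decreased replicate 2. Those of Nrf1 did not overlap, with a log2 difference of 0.21 ± 0.22 (SE, limma adjusted p = 0.857). Cycs, which encodes cytochrome c, was at 394, 369 and 1508 against 559, 580.3 and 277 FPKM, and Cyc1, the cytochrome c1 of complex III, at 259, 129.6 and 136 against 389, 149.6 and 151, both with overlap.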

How the data were processed

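The authors deposited FPKM per gene and library in 2 tables, each with its own scaling. The submitters' processing notes name bcl2fastq 1.8.4, STAR 2.6.0a, Cufflinks 2.2.1, Cuffdiff and DESeq2 1.24.0, without settings, and hg19, which is a human build; the symbols are of rat, so no coordinates come from the tables. Samples were grouped by title. Here, log2(FPKM + 1) was compared with limma 3.58.1 in R 4.3.3 (intensity trend, robust variances, Benjamini-Hochberg adjustment over all genes, threshold 0.05), after the script was tested on simulated data. A gene entered if its 6 libraries averaged 1 FPKM or more. A fold on this scale understates changes of low genes. In each table, 25 date-like symbols were dropped. Alternatives were a median shift, quantile normalization, a pseudocount of 0.1, other filters, plain variances, a replicate block, libraries of 1 lane, and leaving out each library. In the RYGB table, deviations of same-numbered libraries from their group means correlated at 0.85, 0.76 and 0.77 over genes, so the numbers in the labels pair them. Named members were the highest of each set, the extremes of each set per comparison, the 3 lowest p per comparison, complex II and isoform pairs. The members and lists were chosen with earlier results of these data known. Depth is unknown, because low FPKM shared no common step between libraries. The values of 1 member, which is part of the counts and medians, are not reported here.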

Additional observations from a re-analysis of the deposited data

How the results depend on the processing

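The count of members called was 0 under every alternative run in both comparisons. Against sham, the count of all genes called, 4, was 1 with the median shift or a pseudocount of 0.1, 0 with quantile normalization or no filter, and 0 to 13 when 1 library was left out; it was 2 with quantile normalization without sham replicate 1. The replicate numbers of that table share no measured likeness (correlations of 0.35, -0.50 and -0.25), and with the replicate block the count was 39, or 28 with the shift as well. The members higher, 67, were 27 with quantile normalization, 42 in lane 7 alone and 42 with quantile normalization without sham replicate 1; leaving out 1 library gave 46 to 74. The median of the members, 0.27, was -0.13 with quantile normalization, and 0.05 to 0.55 with 1 library left out; the cause was not tested. With the shift and without sham replicate 1, Ndufv1 was 0.11, Sdhc 0.10 and Uqcr11 0.091. Leaving out 1 library gave -0.39 to 0.24 for Ndufv1, -0.86 to 0.046 for Ndufab1, -0.31 to 0.24 for Sdhc and -0.38 to 0.22 for Uqcr11.

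Between the RYGB groups, the count of all genes called, 0, was 122 with the replicate block, which pairs the libraries, 101 with block and shift, and 0 to 1 with 1 library left out, the 1 without FDG-decreased replicate 1. The block changed no other call. Members higher, 52, were 22 to 75 with 1 library left out: 22 without FDG-decreased replicate 2 and 29 without FDG-increased replicate 3. Leave-one-out ranges that crossed 0 were -0.10 to 0.21 for Ndufs8, -0.63 to 0.027 for Ndufb4, -0.28 to 0.19 for Ndufaf5, -0.13 to 0.26 for Sdhc, -0.31 to 0.13 for Sdha, -0.11 to 0.50 for Uqcrb, -0.41 to 0.22 for Uqcr10, -0.25 to 0.63 for Ndufa4, -0.44 to 0.19 for Cox7a2l and -0.43 to 0.0022 for Atp5j2. Lane 7 held 1 library of each of these groups, which leaves no residual spread and no test. In lane 4 alone (1 FDG-decreased and 2 FDG-increased libraries, an alternative chosen after seeing the data), 11 genes were called, and Ndufs8 was -0.13, Ndufaf5 0.060, Sdha 0.34 and Cox7a2l 0.20. Over all alternatives, the lowest adjusted p of a named member was 0.401 against sham and 0.474 between the RYGB groups. With 3 libraries a group and unknown depth, differences near the standard error of a member, 0.38 against sham and 0.39 between the RYGB groups (0.14 with the block), were not resolved.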
